A study of Mus musculus with 23 samples.

Results

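Amyloid precursor protein and the proteins that cut it were examined in hippocampal microglia of female mice through 9 genes: *App*, *Bace1*, *Psen2*, *Aph1a*, *Ncstn*, *Adam10*, *Adam17*, *Ide* and *Prnp*. Members were selected by gene symbol, and all 9 were found among the 18876 genes of the count table. All 9 also passed the filter of at least 5 counts in at least 3 samples that left 18759 genes for testing. Every mouse was *Slc11a2* fl/fl and *Cx3cr1* Cre-ERT2+/- on a mixed 129S and C57BL/6J background, so the controls carried the floxed iron importer gene and the Cre recombinase as well. *Cx3cr1*, which drives the Cre, is active in microglia and in other macrophages. *Slc11a2* KD mice were gavaged with 4 mg tamoxifen daily on 5 days at 5 to 6 months of age and Control mice with corn oil, which means that tamoxifen and knockdown cannot be told apart. Each treatment was given to WT littermates and to hemizygous *APP/PS1* mice, and all were killed at 15 to 18 months. Cells bound by CD11b beads after a Percoll gradient were sequenced in bulk as poly(A) RNA. After removal of Control *APP/PS1* 0010, which the study left out as an outlier, there remained 6 WT and 6 *APP/PS1* samples of Control mice, with 5 of each genotype for *Slc11a2* KD. The study's methods describe the samples of a group as biological replicates, from separate mice.

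Beta-secretase, encoded by *Bace1*, makes the first cut of the amyloidogenic route through amyloid precursor protein. Gamma-secretase then releases amyloid-beta from the membrane. Gamma-secretase is a complex of a presenilin (such as that of *Psen2*), nicastrin (*Ncstn*), an APH1 protein (*Aph1a* or its relatives) and PEN2 (*Psenen*). The metalloproteases ADAM10 and ADAM17 cut inside the amyloid-beta stretch instead and shed many other membrane proteins, among them microglial receptors. Insulin-degrading enzyme (*Ide*) breaks amyloid-beta down, and the prion protein (*Prnp*) is a membrane-anchored glycoprotein that binds amyloid-beta oligomers. The *APP/PS1* line carries a chimeric mouse/human *App* cDNA with the Swedish change and a second transgene, each under the mouse *Prnp* promoter. In that vector the transgene takes the place of the *Prnp* coding sequence between *Prnp* noncoding exon sequences, so transgene reads can be counted on *Prnp* and on *App*. A gene total does not separate such reads from native ones.

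Total gene counts lay between 31128643 and 54872491 in the 22 samples. Expression is given as CPM, read counts scaled to the size of each library by the TMM method. The 9 microglial markers that include *P2ry12*, *Tmem119* and *Cx3cr1* summed to 42587 to 50302 CPM in the WT samples and to 33062 to 40422 CPM in the *APP/PS1* samples, and none of them was at 0. The 12 neuron markers summed to 20.4 to 43.5 CPM in WT and to 12.2 to 17.8 CPM in *APP/PS1* samples. In bulk samples fewer cells of a type and less RNA per cell cannot be told apart. *Slc11a2* itself, counted over the whole gene with its floxed exons not separated, was at 35.1 ± 5.13 CPM (SD, n = 6) in Control WT and 34.2 ± 4.76 CPM (n = 5) in *Slc11a2* KD WT. It was at 43.2 ± 3.93 CPM (n = 6) in Control *APP/PS1* and 56.5 ± 13.5 CPM (n = 5) in *Slc11a2* KD *APP/PS1*. The gene total was thus not lower in the libraries labelled *Slc11a2* KD, with log2 fold changes against Control of -0.04 (SE 0.14, adjusted p = 1) in WT and 0.39 (SE 0.14, adjusted p = 0.205) in *APP/PS1* mice (edgeR), and it does not check the deletion. The study itself reports a loss of expression over part of the *Slc11a2* exons in knockdown microglia, from read coverage, and a check of the knockdown by RT-qPCR.

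In Control WT microglia the members were expressed over a wide range. Per kb of the canonical transcript, *Aph1a* was at 91.0 ± 5.56 CPM per kb (SD, n = 6), *Adam10* at 78.4 ± 6.01 and *Ncstn* at 71.9 ± 6.72. *Adam10* and *Ncstn* did not differ beyond their spread. *Adam17* followed at 32.3 ± 3.69 CPM per kb, *App* at 23.3 ± 3.02, *Psen2* at 13.7 ± 2.02 and *Ide* at 7.61 ± 1.95. *Prnp*, at 3.57 ± 1.65 CPM per kb, and *Bace1*, at 0.630 ± 0.242, stood lowest. Beta-secretase was therefore the least expressed member in these cells, with 97 to 270 counts per Control WT sample. Per kb of all annotated exons merged, *Adam10* (65.5 ± 5.02) stood above *Aph1a* (41.6 ± 2.54) and the order of the other members did not change.

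*Prnp* separated the genotypes completely. *Prnp* lies on the plus strand of chromosome 2 of GRCm39, from 131724927 to 131780375, and its canonical transcript has 3 exons. The 250 bases upstream of that transcript, at chr2:131751573-131751822 (plus strand), are shown because this region is the native copy of the promoter that drives both transgenes. Capitals mark, on either strand, the GC box letters GGGCGG, the CCAAT box letters CCAAT and the TATA box letters TATAAA.

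Prnp: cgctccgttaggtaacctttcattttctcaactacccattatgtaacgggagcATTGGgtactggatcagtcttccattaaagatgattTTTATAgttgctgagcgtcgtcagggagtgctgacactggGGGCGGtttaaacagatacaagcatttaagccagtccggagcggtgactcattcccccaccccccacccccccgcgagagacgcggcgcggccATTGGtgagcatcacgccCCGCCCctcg

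The window holds the GC box letters at 2 places, the CCAAT box letters at 2 places and the TATA box letters at 1 place, with no overlap between them. Of 21757 promoter windows of the same length, 36.3% hold the GC box letters, 36.5% the CCAAT box letters and 11.9% the TATA box letters on either strand.

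In Control WT samples *Prnp* ran from 1.74 to 12.3 CPM with a median of 7.86, and in Control *APP/PS1* samples from 14.1 to 25.0 CPM with a median of 19.7. In *Slc11a2* KD WT samples it was at 2.67, 7.22, 7.97, 7.59 and 9.23 CPM, and in *Slc11a2* KD *APP/PS1* samples at 15.8, 18.9, 16.9, 19.6 and 18.5 CPM. All 11 *APP/PS1* samples stood above all 11 WT samples, as the plot of *Prnp* and *App* by group shows. The mean was 19.6 ± 5.14 CPM (SD, n = 6) against 7.97 ± 3.68 (n = 6) in Control mice, a 2.46-fold ratio and a difference of 11.6 CPM (SE 2.58, exact permutation test, two-sided, p = 0.00216). In *Slc11a2* KD mice it was 18.0 ± 1.58 CPM (n = 5) against 6.93 ± 2.50 (n = 5), a 2.59-fold ratio and a difference of 11.02 CPM (SE 1.32, exact permutation test, two-sided, p = 0.00794). Both are the smallest p-values that these group sizes allow. The fit across all genes gave log2 fold changes of 1.30 (SE 0.32, adjusted p = 0.008) and 1.37 (SE 0.35, adjusted p = 0.00853) by edgeR. The *APP/PS1* surplus over WT made up 59.3% of the *Prnp* total in Control *APP/PS1* and 61.4% in *Slc11a2* KD *APP/PS1* samples. The 12 neuron markers, neurons being cells rich in native *Prnp*, summed lower in the same *APP/PS1* samples, as given above. Of these 12, 10 in Control and 11 in *Slc11a2* KD mice were lower in *APP/PS1*. The 3 markers of oligodendrocyte precursors summed higher, at 4.47 to 49.2 CPM in Control *APP/PS1* against 1.29 to 9.05 CPM in Control WT, and at 7.99 to 30.5 CPM against 1.24 to 2.65 CPM in *Slc11a2* KD mice. *Cspg4*, at 24.9 ± 18.2 CPM (SD, n = 6) in Control *APP/PS1*, held most of that sum, while *Pdgfra* was at 0.680 CPM or less in each Control sample. Of these 3 markers, 2 in Control and 1 in *Slc11a2* KD mice were higher in *APP/PS1*, and the mean of *Pdgfra* was lower in both. The 10 astrocyte markers summed to overlapping ranges, 142 to 718 CPM in Control WT and 154 to 587 CPM in Control *APP/PS1*, and 134 to 507 CPM and 110 to 683 CPM in *Slc11a2* KD mice, with 4 higher and 6 lower in *APP/PS1* in both. One of them, *Gfap*, separated the genotypes as *Prnp* did, at 26.0 to 89.7 CPM in Control *APP/PS1* against 2.05 to 4.37 CPM in Control WT, and at 31.6 to 109.6 CPM against 2.17 to 9.27 CPM in *Slc11a2* KD mice. *Gfap* was singled out after its values were seen. The part of these cells in the *Prnp* totals was not tested.

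**Figure D1:**
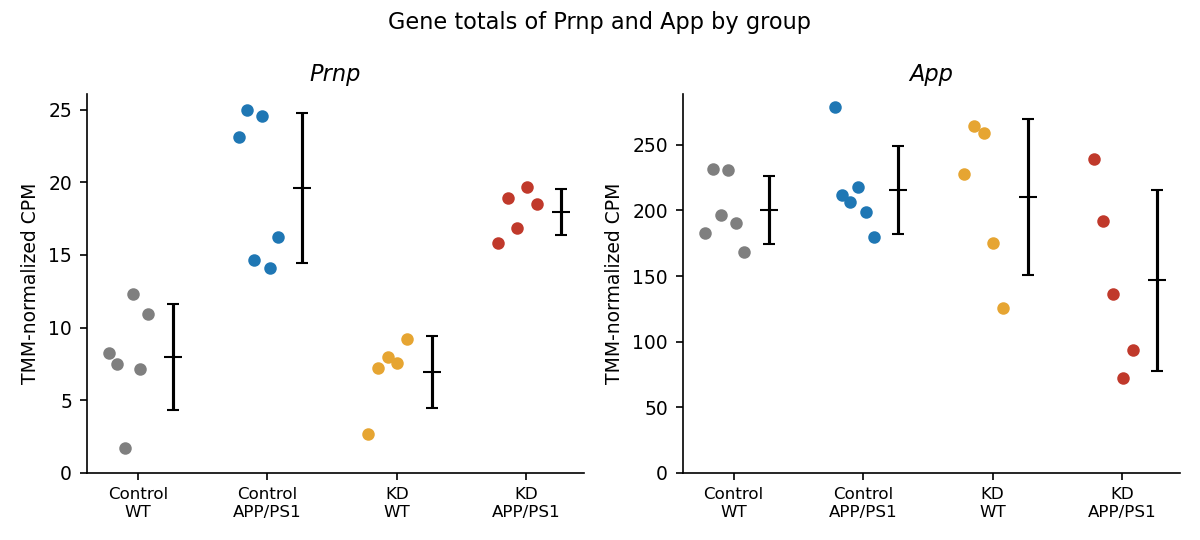
*Prnp* (left) and *App* (right) in TMM-normalized CPM for each sample (coloured points) of the 4 groups, with the group mean and SD as a black bar and whiskers. Every *APP/PS1* sample lies above every WT sample for *Prnp* (14.1 to 25.0 against 1.74 to 12.3 CPM), while the genotypes overlap for *App*.

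*App* overlapped between the genotypes. *App* lies on the minus strand of chromosome 16, from 84746573 to 84971126, and its canonical transcript has 17 exons. The stretch below is the native mouse sequence around the 42 codons of amyloid-beta, in capitals, with 30 coding bases on each side. It is shown because it holds the sites of the beta- and gamma-secretase cuts and because mouse *App* and the transgene differ in and just before it. It is read across the end of exon 15 (chr16:84762558-84762638) and the start of exon 16 (chr16:84759652-84759756), both on the minus strand of GRCm39.

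App: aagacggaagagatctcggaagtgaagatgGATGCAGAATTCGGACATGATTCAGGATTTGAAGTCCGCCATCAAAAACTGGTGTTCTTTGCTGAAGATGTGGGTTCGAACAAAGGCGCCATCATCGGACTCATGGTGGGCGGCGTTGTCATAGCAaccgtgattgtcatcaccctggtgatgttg

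*App* ran from 168 to 232 CPM with a median of 194 in Control WT samples, and from 180 to 279 CPM with a median of 209 in Control *APP/PS1* samples. The ranges overlapped, and 1 of 6 *APP/PS1* samples stood above all WT samples. The difference of the means was 15.4 CPM (SE 17.3, n = 6 and 6, exact permutation test, two-sided, p = 0.424), with a log2 fold change of 0.11 (SE 0.22, adjusted p = 0.843, edgeR). With 1 sample left out the difference ran from 2.78 to 22.6 CPM. In *Slc11a2* KD mice *App* was at 228, 264, 259, 175 and 126 CPM in WT and at 239, 192, 137, 72.3 and 93.6 CPM in *APP/PS1* samples. The *APP/PS1* mean was lower by 63.6 CPM (SE 40.6, n = 5 and 5), which did not exceed the spread (exact permutation test, two-sided, p = 0.159; edgeR log2 fold change -0.52, SE 0.24, adjusted p = 0.141). It did without *Slc11a2* KD *APP/PS1* 0004 (log2 fold change -0.77, adjusted p = 0.0163), without *Slc11a2* KD WT 0022 (-0.66, adjusted p = 0.0461) and by limma voom (-0.61, adjusted p = 0.032). It shrank to -0.20 (adjusted p = 0.617) with library numbers 18 to 23 as a covariate and to -0.21 (adjusted p = 0.256) with an offset for exon length and GC content. The difference of the means in *Slc11a2* KD mice ran from -86.7 to -45.0 CPM with 1 sample left out.

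The *Prnp* surplus gives a scale for the *App* reads that could be of transgene origin. The canonical *Prnp* transcript has 1473 bp of noncoding exon sequence, and the form of *App* carried by the transgene (APP695) has 2085 bp of coding sequence. If each transgene transcript held all of that *Prnp* sequence and all were *App* transcripts, the *Prnp* surplus would correspond to 16.5 CPM (SE 3.65) on *App* in Control and 15.6 CPM (SE 1.87) in *Slc11a2* KD mice. These are 8.22% and 7.42% of the *App* level in WT mice, and both are below the SD of *App* among WT samples, 25.9 CPM in Control and 59.2 CPM in *Slc11a2* KD. A surplus of that size on *App* was not detectable with these group sizes. The arithmetic takes counts as proportional to length. Reads of the second transgene on *Prnp* would make the *App* figures too high, and transcripts with less of the *Prnp* sequence would make them too low. The figures are therefore a scale and not a bound. Per kb of merged exons the *APP/PS1* surplus in Control was 1.77 CPM per kb for *Prnp* and 0.81 for *App*.

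Among the secretase genes of Control mice, 2 gamma-secretase genes were higher in *APP/PS1* microglia. With *Prnp*, 3 of 9 members passed an adjusted p of 0.05, all of them higher in *APP/PS1*, where 10.5% of all genes tested passed. The median log2 fold change was 0.11 over the members and -0.02 over all genes tested. *Ncstn*, the nicastrin gene (chromosome 1, 171893580 to 171910369), ran from 185 to 233 CPM with a median of 207 in Control WT and from 246 to 307 CPM with a median of 269 in Control *APP/PS1*. Its groups did not overlap, and the log2 fold change was 0.40 (SE 0.10, adjusted p = 0.0133, edgeR). *Psen2*, the presenilin 2 gene (chromosome 1, 180054569 to 180091003), ran from 21.2 to 31.6 CPM with a median of 28.4 in Control WT and from 30.6 to 40.7 CPM with a median of 37.2 in Control *APP/PS1*. Of 6 *APP/PS1* samples, 5 stood above all WT samples (log2 fold change 0.41, SE 0.13, adjusted p = 0.0472, edgeR). This *Psen2* call was at the edge of the threshold. It was lost in 9 of 12 fits that left out 1 sample, with adjusted p up to 0.112, kept only without Control WT 0008, Control WT 0012 or Control *APP/PS1* 0016, and lost by DESeq2 (0.38, adjusted p = 0.0513), with its size factors in edgeR (0.38, adjusted p = 0.0796), with at least 10 counts in every sample (0.37, adjusted p = 0.0564), without Control WT 0012 and 0015 (0.42, adjusted p = 0.107) and with a correction for exon length and GC content (0.35, adjusted p = 0.115). The *Psen2* call was kept by limma voom (0.44, adjusted p = 0.0119) and in edgeR with only the Control groups (0.43, adjusted p = 0.0111). It was also kept in edgeR with the library-number covariate (adjusted p = 0.0183), with 0010 kept (0.0264), without 0004 (0.0415) and with no gene filter (0.0475). *Aph1a* (chromosome 3, 95801233 to 95805901) overlapped, from 146 to 176 CPM in Control WT and from 147 to 177 CPM in Control *APP/PS1* (log2 fold change 0.03, SE 0.13, adjusted p = 0.931, edgeR).

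*Bace1* and *Adam10* had lower means in Control *APP/PS1* microglia without passing the test. *Bace1* (chromosome 9, 45749834 to 45776173) ran from 2.16 to 6.28 CPM with a median of 3.89 in Control WT and from 0.724 to 2.66 CPM with a median of 2.17 in Control *APP/PS1*. The groups overlapped, with a log2 fold change of -1.04 (SE 0.38, adjusted p = 0.0905, edgeR), which passed by DESeq2 (-1.08, adjusted p = 0.0327). It also passed by limma voom (adjusted p = 0.0442) and in edgeR with at least 10 counts in every sample (0.0402), with 0010 kept (0.0494), with the library-number covariate (0.0476), with only the Control groups (0.0495) and with the length and GC offset (0.0426). Without Control WT 0012 and 0015, the WT samples highest in *Bace1* at 6.28 and 5.67 CPM, it was -0.67 (adjusted p = 0.391, edgeR). *Adam10* (chromosome 9, 70586221 to 70687511) ran from 329 to 402 CPM with a median of 371 in Control WT and from 275 to 325 CPM with a median of 290 in Control *APP/PS1*. Its groups did not overlap, yet the change did not pass in the fit over 4 groups (log2 fold change -0.31, SE 0.16, adjusted p = 0.225, edgeR). It passed when only the Control groups were fitted (-0.30, adjusted p = 0.00974) and by limma voom (-0.34, adjusted p = 0.0249). The oligodendrocyte markers also summed lower in these samples, at 365 to 978 CPM in Control *APP/PS1* against 739 to 2807 CPM in Control WT, and all 8 were lower. The 14 choroid plexus markers summed to 1.65 to 2006 CPM in Control WT and to 0.991 to 5.60 CPM in Control *APP/PS1*, all 14 lower, with 6 of them, *Clic6*, *Kcnj13*, *Sostdc1*, *Cldn2*, *Slc4a5* and *Kcne2*, at 0 there. The part of these markers and of the neuron markers in the *Bace1* level was not tested. *Adam17* (chromosome 12, 21373510 to 21423672) and *Ide* (chromosome 19, 37245688 to 37340729) overlapped between the Control groups, with log2 fold changes of 0.08 (SE 0.19) and 0.18 (SE 0.31) and adjusted p of 0.861 and 0.801 (edgeR).

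**Figure D2:**
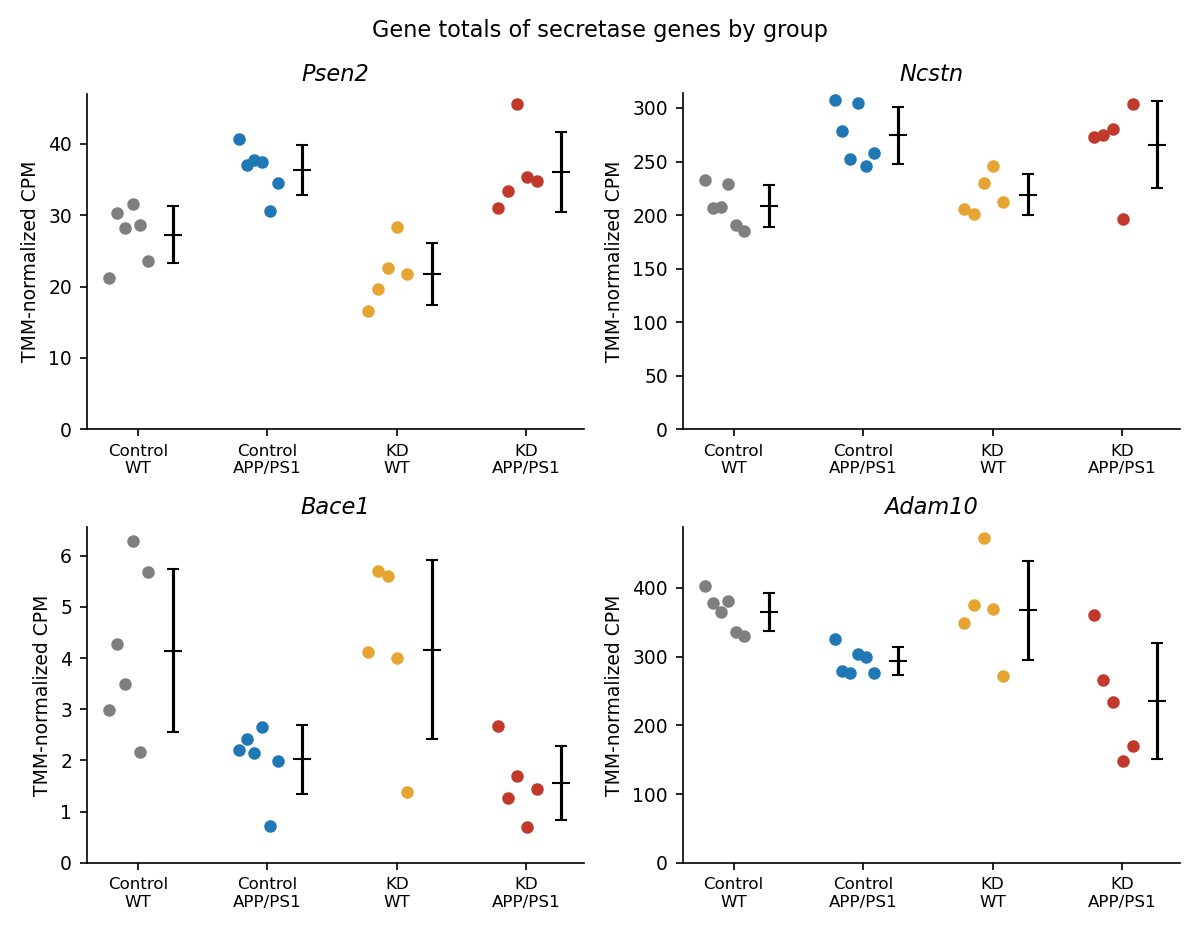
*Psen2*, *Ncstn*, *Bace1* and *Adam10* in TMM-normalized CPM for each sample (coloured points) of the 4 groups, with the group mean and SD as a black bar and whiskers. *Ncstn* was at 246 to 307 CPM in Control *APP/PS1* against 185 to 233 CPM in Control WT, and *Adam10* was at 275 to 325 CPM against 329 to 402 CPM.

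In *Slc11a2* KD mice 4 of 9 members differed between the genotypes, 2 higher and 2 lower in *APP/PS1*, where 16.2% of all genes tested passed. The median log2 fold change was 0.10 over the members and -0.07 over all genes tested. *Psen2* was at 16.5, 19.6, 22.6, 28.4 and 21.8 CPM in WT samples and at 30.97, 33.3, 45.6, 35.3 and 34.8 CPM in *APP/PS1* samples. All 5 *APP/PS1* samples stood above all WT samples (log2 fold change 0.73, SE 0.15, adjusted p = 0.00156, edgeR). *Ncstn* was at 205, 201, 230.3, 246 and 213 CPM in WT and at 273, 274, 280.0, 197 and 304 CPM in *APP/PS1* samples. In *APP/PS1*, 4 of 5 samples stood above all WT samples and 0021 stood below them (log2 fold change 0.28, SE 0.11, adjusted p = 0.0926, edgeR). The change passed without 0021 (0.37, adjusted p = 0.0213), by DESeq2 (0.29, adjusted p = 0.0316), by limma voom (0.34, adjusted p = 0.0248) and with at least 10 counts in every sample (0.28, adjusted p = 0.0452).

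In the reported fit *Bace1* and *Adam10* were lower in *APP/PS1* than in WT microglia of *Slc11a2* KD mice. With the library-number covariate *Bace1* did not pass, as given below. *Bace1* was at 4.12, 5.69, 5.61, 4.00 and 1.38 CPM in WT and at 2.67, 1.26, 1.69, 0.693 and 1.45 CPM in *APP/PS1* samples. The WT sample 0022 lay among the *APP/PS1* samples, and the log2 fold change was -1.42 (SE 0.42, adjusted p = 0.0242, edgeR). The call was lost in 5 of 10 fits that left out 1 sample, namely *Slc11a2* KD WT 0002 or 0003 or *APP/PS1* 0018, 0021 or 0023, with adjusted p up to 0.0712 and log2 fold changes between -1.71 and -1.23 over the 10 fits. *Adam10* was at 349, 374, 472, 369 and 271 CPM in WT and at 359.7, 266, 234, 149 and 169.8 CPM in *APP/PS1* samples. Of the *APP/PS1* samples, 4 stood below all WT samples and 0004 stood among them (log2 fold change -0.64, SE 0.17, adjusted p = 0.0135, edgeR), and the call was lost without *Slc11a2* KD WT 0003 (-0.53, adjusted p = 0.0533). The oligodendrocyte markers summed to 556 to 1273 CPM in these *APP/PS1* samples against 1009 to 3643 CPM in WT, all 8 lower, and the neuron markers were lower as given above. Their part in these changes was not tested. When only the *Slc11a2* KD groups were fitted, both calls were lost (*Bace1* -1.39, adjusted p = 0.0964; *Adam10* -0.61, adjusted p = 0.14). *Adam17* was at 145, 159, 193, 127 and 94.9 CPM in WT and at 156, 129, 107, 60.3 and 74.7 CPM in *APP/PS1* samples (log2 fold change -0.45, SE 0.21, adjusted p = 0.14, edgeR). It passed without *APP/PS1* 0004 (-0.63, adjusted p = 0.024) or WT 0022 (-0.57, adjusted p = 0.0475) and was -0.20 (adjusted p = 0.593) with the library-number covariate. *Aph1a* was between 132 and 242 CPM in WT and between 168 and 233 CPM in *APP/PS1* samples (log2 fold change 0.27, SE 0.14, adjusted p = 0.197, edgeR). It passed without WT 0022 (0.43, adjusted p = 0.0185) and by limma voom (0.43, adjusted p = 0.0128), and was 0.08 (adjusted p = 0.709) with the covariate. *Ide* was between 12.9 and 40.7 CPM in WT and between 10.8 and 60.2 CPM in *APP/PS1* samples, with adjusted p = 0.882 (edgeR).

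**Figure D3:**
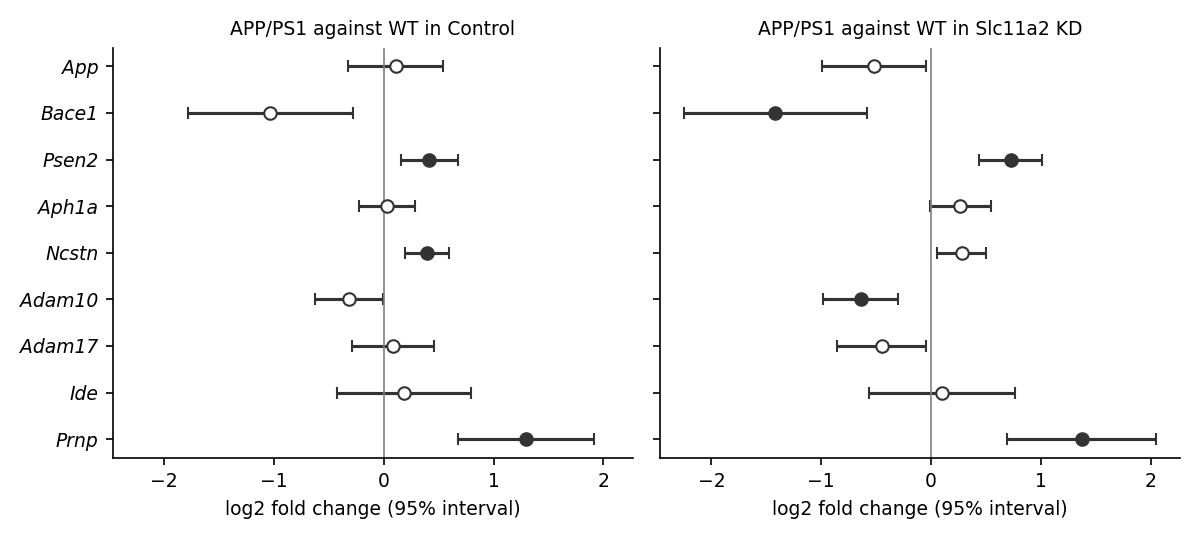
Log2 fold change of the 9 members in *APP/PS1* against WT, in Control (left) and *Slc11a2* KD mice (right), with a normal 95% interval from the SE of the edgeR fit. Filled points passed an adjusted p of 0.05, as for *Prnp* at 1.30 and 1.37, and open points did not.

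The knockdown question is whether loss of the iron importer in microglia changed these genes. In WT mice 0 of 9 members differed between *Slc11a2* KD and Control, where 0% of all genes tested passed by edgeR, 1110 genes had an unadjusted p under 0.05 and DESeq2 called 10 genes and 0 members. *Psen2* had the smallest unadjusted p of the members (log2 fold change -0.33, SE 0.14, adjusted p = 0.732). In *APP/PS1* mice 0 of 9 members and 0% of all genes passed by edgeR, 3862 genes had an unadjusted p under 0.05 and DESeq2 called 580 genes and none of the 6 members to which it gave an adjusted p, which left out *Bace1*, *Psen2* and *Prnp*. The members' median log2 fold change there was -0.32 against 0.01 over all genes. *Adam17* (-0.54, SE 0.20, adjusted p = 0.205), *App* (-0.56, SE 0.23, adjusted p = 0.208) and *Aph1a* (0.34, SE 0.14, adjusted p = 0.205) were the members with an unadjusted p under 0.05. The sample 0004 decided these values. Without it 5 members passed, where 16.4% of all genes passed. *App* (-0.80, SE 0.22, adjusted p = 0.0231), *Adam10* (-0.52, SE 0.15, adjusted p = 0.0246), *Adam17* (-0.72, SE 0.20, adjusted p = 0.0218) and *Ide* (-1.11, SE 0.29, adjusted p = 0.0211) were lower and *Aph1a* (0.41, SE 0.14, adjusted p = 0.0471) was higher in *Slc11a2* KD. For the interaction of knockdown and genotype, 0 of 9 members and 0% of all genes passed by edgeR, 1703 genes had an unadjusted p under 0.05 and DESeq2 called 25 genes and 0 members. The interaction for *Prnp* was 0.07 (SE 0.46, 95% interval -0.83 to 0.98) and that for *App* was -0.63 (SE 0.33, 95% interval -1.27 to 0.01) on the log2 scale.

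*App*, *Ide* and *Aph1a* also differed by library number within *Slc11a2* KD. Sample names carry a library number, which is 5 to 17 for Control mice and either 1 to 4 or 18 to 23 for *Slc11a2* KD mice, and whether they mark batches is not stated. Of the *APP/PS1* samples of *Slc11a2* KD mice, 0004 was the only one with a number from 1 to 4, while 3 of the 5 WT samples had one. Within *Slc11a2* KD, with genotype in the fit, numbers 18 to 23 stood lower than 1 to 4 in *App* (log2 fold change -0.81, SE 0.24, adjusted p = 0.0342) and *Ide* (-1.09, SE 0.31, adjusted p = 0.0285), and higher in *Aph1a* (0.59, SE 0.12, adjusted p = 0.0102), by edgeR. These were 3 of 9 members, where 18.8% of 17060 genes passed, and *Adam17* (-0.63, adjusted p = 0.0528), *Adam10* (-0.50, adjusted p = 0.0897) and *Bace1* (-0.97, adjusted p = 0.136) did not. *App* was at 228 to 264 CPM in numbers 1 to 4 and at 72.3 to 192 CPM in numbers 18 to 23, *Adam17* at 145 to 193 and 60.3 to 129 CPM, and *Aph1a* at 132 to 168 and 191 to 242 CPM, with no overlap. *Ide* overlapped, at 22.4 to 60.2 and 10.8 to 32.7 CPM, as did *Bace1*, *Psen2*, *Ncstn* and *Adam10*. The share of all genes without overlap between these numbers was not counted, so the separation is not particular to the members. *Aph1a* in numbers 18 to 23 also stood above its Control range of 146 to 177 CPM in 6 of 6 samples. *Adam10* stood below its Control range in 5 of these 6 samples, and *App*, *Adam17* and *Ide* each in 4. The Control ranges leave out Control *APP/PS1* 0010, which held *Aph1a* at 236 CPM and *App* at 103 CPM. *Prnp* overlapped, at 2.67 to 15.8 CPM and 7.59 to 19.6 CPM (log2 fold change 0.40, SE 0.28, adjusted p = 0.366, edgeR).

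The balance of long against short genes moved with the same samples. It is the median log2 level, relative to the Control WT mean, of 3953 genes in the longest tercile of exon length minus that of 3956 genes in the shortest. It was 0.05 to 0.36 in *Slc11a2* KD numbers 1 to 4, -0.25 to 0.22 in Control samples and -1.07 to -0.27 in numbers 18 to 23. *Aph1a* has a canonical transcript of 1759 bp, the shortest of the members, and *App* one of 8582 bp, the longest. Over the 22 samples, which differ in this balance, in genotype and in treatment, *App* had a Pearson correlation of 0.96 with *Adam17*, 0.85 with *Adam10*, 0.75 with *Ide* and -0.82 with *Aph1a* on the log2 CPM scale, and of -0.21 with *Prnp*. With an offset for exon length and GC content the *App* change of *Slc11a2* KD against Control in *APP/PS1* mice was -0.19 (adjusted p = 0.401), and with numbers 18 to 23 as a covariate it was 0.05 (adjusted p = 1), by edgeR. No Control sample has a number from 18 to 23, so with the covariate a knockdown change rests on *Slc11a2* KD numbers 1 to 4 against Control. Of the *APP/PS1* samples only 0004 is among these, and the fit takes the shift between the numbers as equal in both genotypes. Between the genotypes in *Slc11a2* KD mice the covariate left *Prnp* at 1.24 (adjusted p = 0.0305), *Psen2* at 0.61 (adjusted p = 0.00679) and *Adam10* at -0.46 (adjusted p = 0.0465), and *Bace1* no longer passed (-1.03, adjusted p = 0.134). The plot of levels by library number shows these runs.

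**Figure D4:**
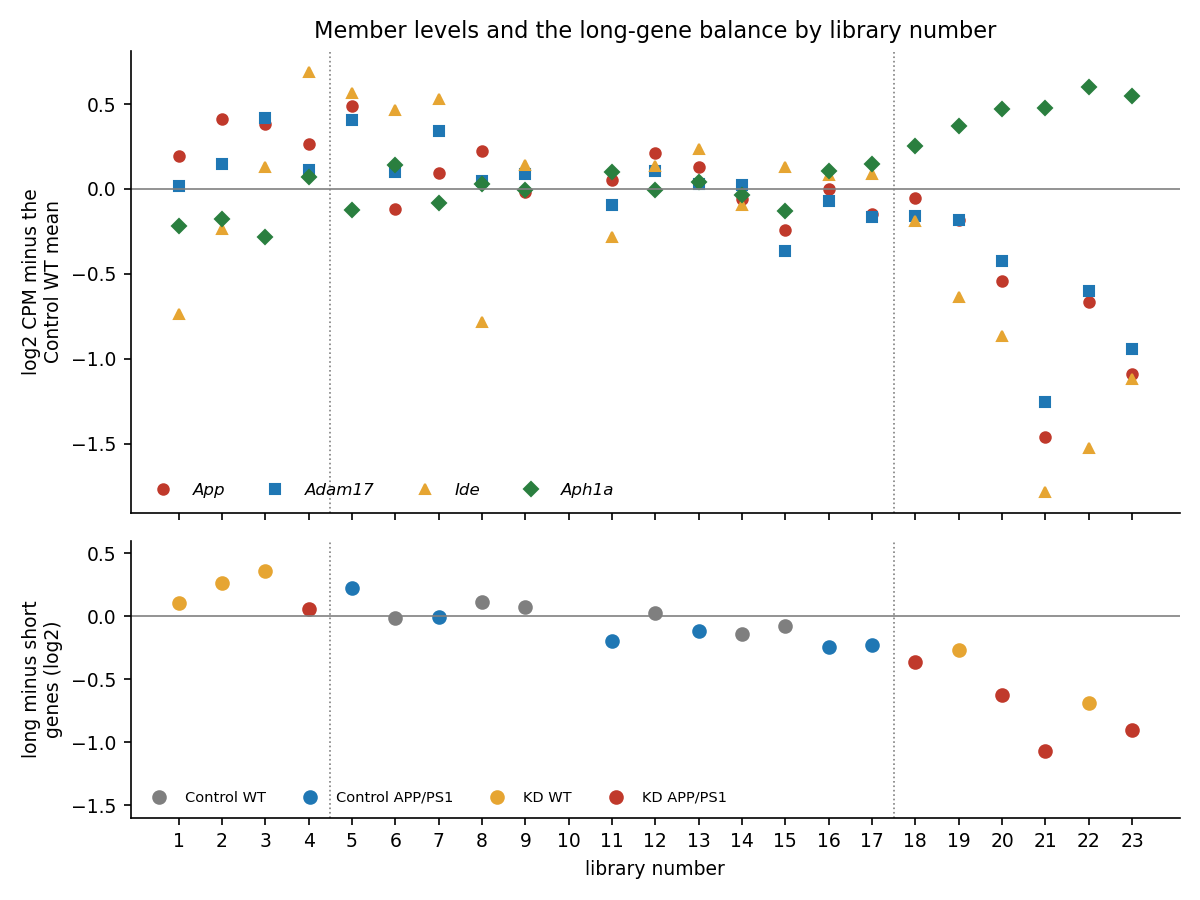
Top, log2 CPM of *App*, *Adam17*, *Ide* and *Aph1a* minus their Control WT mean for each of the 22 samples, against the library number, with dotted lines between numbers 4 and 5 and between 17 and 18. Bottom, the median of long minus short genes (log2) in the same samples, coloured by group, which falls to between -1.07 and -0.27 in numbers 18 to 23. Of these 6 samples, 4 lie below the Control range for *App*, 4 for *Adam17* and 4 for *Ide*, and 6 lie above it for *Aph1a*.

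A list of 51 other genes of the pathway was described in the same way, of which 47 were in the table and 46 were tested. In Control mice 6 rose and 5 fell in *APP/PS1*, and in *Slc11a2* KD mice 9 rose and 4 fell, beside the 10.5% and 16.2% of all genes that passed. No gene of the list passed for the knockdown comparisons or the interaction by edgeR, where no gene of the table passed. *Aplp2*, a paralog of *App* and likewise a secretase substrate, ran from 75.0 to 108 CPM in Control WT and from 244 to 467 CPM in Control *APP/PS1* (log2 fold change 1.87, SE 0.18, adjusted p = 1.05e-07, edgeR). In *Slc11a2* KD mice it ran from 53.0 to 93.4 CPM in WT and from 182 to 304 CPM in *APP/PS1* (1.61, SE 0.20, adjusted p = 4.64e-06). *Aplp2* thus separated the genotypes without overlap while *App* did not. *Apbb2*, an adaptor that binds the intracellular tail of amyloid precursor protein, rose by 1.89 (SE 0.35) in Control and 1.18 (SE 0.38) in *Slc11a2* KD mice. *Gga2*, a sorting adaptor, rose by 0.87 (SE 0.12) and 0.84 (SE 0.13), and *Plau*, the urokinase gene, by 1.26 (SE 0.19) and 0.79 (SE 0.20). The sorting receptor gene *Sorl1* rose in Control mice (0.88, SE 0.25, adjusted p = 0.0246, edgeR).

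The tetraspanins of the ADAM10-binding TspanC8 family did not move one way. *Tspan14* fell in Control mice from 535 to 703 CPM in WT to 366 to 506 CPM in *APP/PS1* (log2 fold change -0.46, SE 0.11, adjusted p = 0.00533) and in *Slc11a2* KD mice (-0.35, SE 0.12, adjusted p = 0.0388). *Tspan33* fell in Control mice (-0.61, SE 0.14, adjusted p = 0.00426), *Tspan17* rose in Control (1.22, SE 0.32, adjusted p = 0.0143) and *Slc11a2* KD mice (1.22, SE 0.35, adjusted p = 0.019), and *Tspan5* rose in *Slc11a2* KD mice (0.63, SE 0.19, adjusted p = 0.0236), all by edgeR. *Timp3*, an inhibitor of ADAM proteases, fell in Control (-1.72, SE 0.44, adjusted p = 0.0117) and *Slc11a2* KD mice (-1.40, SE 0.48, adjusted p = 0.0483). Markers of vascular cells and border macrophages were lower in the same samples. The 7 endothelial markers summed to 114 to 151 CPM in Control *APP/PS1* against 175 to 375 CPM in Control WT, and to 96.0 to 169.7 CPM against 147 to 326 CPM in *Slc11a2* KD mice, with 6 lower in both. The 4 pericyte markers, all lower in both, summed to 7.55 to 19.4 CPM against 9.72 to 66.5 CPM, and to 9.37 to 28.5 CPM against 19.7 to 54.9 CPM. The 6 border macrophage markers summed to 80.9 to 172 CPM against 186 to 368 CPM, and to 109 to 156 CPM against 210.0 to 450 CPM, with 6 and 5 lower. The part of these cells in the *Timp3* level was not tested. Of the other gamma-secretase subunits, *Aph1b* was lower in *APP/PS1* than in WT samples of Control mice (-0.79, SE 0.23, adjusted p = 0.0247). *Psenen* was higher in *APP/PS1* than in WT samples of *Slc11a2* KD mice (0.48, SE 0.16, adjusted p = 0.0401). The remaining calls were *Itm2a* (-1.27, SE 0.27) in Control mice, and *Gsap* (0.81, SE 0.17), *Rer1* (0.60, SE 0.20) and *Mmp2* (-1.13, SE 0.29) in *Slc11a2* KD mice. *Bace2* also passed in *Slc11a2* KD mice, with no count in any *APP/PS1* sample and at most 0.525 CPM in WT samples. Genes of this list are given for the reported fit only, without the library-number covariate, the offset or samples left out. In *Slc11a2* KD mice the library numbers were unequally shared between the genotypes, as given above, and their part in these calls was not tested.

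By Pearson correlation of log2 CPM over the 22 samples, the genes most like *App* were *Prpf8* (0.97), *Fnbp1* (0.97), *Extl3* (0.97), *Ankrd13a* (0.97) and *Cdc42bpb* (0.97). Those most like *Prnp* were *Eml2* (0.92), *Fgf1* (0.89), *Slc66a3* (0.89), *Clic4* (0.89) and *Gsn* (0.87). Among the 11 WT samples, in which no transgene is present, the genes most like *Prnp* were *E130317F20Rik* (0.92), *Cystm1* (0.91), *Yap1* (0.89), *Daam2* (0.88) and *Six5* (0.88), none of which is in the list over all samples. For *App* the WT list held *Tnfrsf11a* (0.97), *Fnbp1* (0.97), *Rapgef1* (0.96) and *Gm44250* (0.96), and *Fnbp1* was in both lists. The points of each correlation share genotype, treatment and library number.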

How the data were processed

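RNA of CD11b-bound cells was measured in 23 samples. The authors trimmed reads with Trim Galore 0.6.7 and Cutadapt, aligned them to mm39 with STAR, using GENCODE annotation, and deposited uniquely mapped reads per gene as raw counts. A second deposited table holds a signal, the counts divided by size factors of DESeq2 1.36.0, and was used only as an alternative scale. Each sample was grouped by its label, and 0 columns belonged to other samples.

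The gene filter required 5 or more counts in 3 or more of 22 samples. Testing was by the quasi-likelihood method of edgeR 4.0.16 in R 4.3.3, with TMM scaling, the 4 groups fitted together and no covariate. P-values were Benjamini-Hochberg adjusted over 18759 genes, with a threshold of 0.05. The SE of a log2 fold change was derived from the F statistic as the absolute change over its square root. CPM of *Prnp* and *App* were compared by exact permutation tests (scipy 1.17.1). log2 CPM used a prior count of 2. Positions and lengths were taken from GENCODE M39 (GRCm39), where 18731 genes matched by identifier. The annotation used for counting was an earlier release, so lengths per kb are approximate, and reads shared by overlapping genes were not resolved.

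Alternatives were DESeq2 1.42.0, its size factors in edgeR, limma voom 3.58.1, other filters, a fold limit, 0010 kept, 0004 left out, a library-number covariate, only the compared groups, and each sample left out. An offset for length and GC content, the comparison of library-number runs and leaving out Control WT 0012 and 0015 were chosen after seeing the data. The members and lists were chosen with earlier results of these data known. Named genes are all members, called pathway genes averaging at least 1 CPM, and the 5 genes most correlated with *App* and with *Prnp*. *Bace2*, below that mean, was named after its values were seen, and some genes that the rule names are not reported here. Steps were tested on simulated data. Total counts ran from 31128643 to 54872491 per sample.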

Additional observations from a re-analysis of the deposited data

Results flagged for a closer look

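Control *APP/PS1* 0010, which entered no comparison, held *Prnp* at 19.5 CPM, inside the range of the other *APP/PS1* samples (14.1 to 25.0 CPM) and above every WT sample. In the same sample *App* was at 103 CPM, *Adam17* at 77.1 CPM, *Adam10* at 183 CPM, *Ide* at 23.5 CPM and *Ncstn* at 211 CPM, each below the range of the 6 other Control *APP/PS1* samples. *Aph1a* at 236 CPM and *Psen2* at 42.2 CPM were above it. With 0010 counted, *Ncstn* overlapped between the Control genotypes (185 to 233 CPM in WT), and its log2 fold change was 0.35 (adjusted p = 0.0351, edgeR).

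Of 36 sets of group values checked for a sample far from the others, 3 had one, and chance alone flags about 1 in 20. *Bace1* was at 0.724 CPM in Control *APP/PS1* 0016, with the next lowest sample at 1.99 CPM. *Ncstn* was at 197 CPM in *Slc11a2* KD *APP/PS1* 0021, with the next lowest at 273 CPM. *Adam17* was at 112 CPM in Control WT 0015, with the next lowest at 146 CPM.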

How the results depend on the processing

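*Prnp* kept its direction and its call between the genotypes in every alternative run, in Control (log2 fold change 1.09 to 1.46 with 1 sample left out) and in *Slc11a2* KD mice (1.17 to 1.5). The number of members called in Control, 3, became 1 when log2 fold changes also had to exceed 1 in size, 5 by limma voom and 5 with only the Control groups fitted. In *Slc11a2* KD, 4 became 2 with that limit, 7 by limma voom and 2 with only these groups fitted, and ran from 2 (without *Slc11a2* KD WT 0003) to 7 (without *Slc11a2* KD WT 0022) with 1 sample left out. For *Slc11a2* KD against Control in *APP/PS1* mice, 0 became 5 without 0004 and ran from 0 to 5 with 1 sample left out. With 0010 kept, the *App* difference in Control was -0.506 CPM and *App* and *Adam17* were at -0.0036 and -0.0224 on the log2 scale. Per kb of the canonical transcript, the *APP/PS1* surplus was 5.2 CPM for *Prnp* and 1.8 for *App* in Control, and 4.93 and -7.42 in *Slc11a2* KD mice, against 1.68 and -3.34 per kb of merged exons. The length alone makes this change.

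Other changes of sign were of values that did not pass in the reported fit or with the changed sign, of which *App*, *Aph1a*, *Adam10* and *Ide* for *Slc11a2* KD in *APP/PS1* passed without 0004. *Aph1a* in Control was at -0.0021 by DESeq2, -0.00202 with its size factors, -0.00999 with 10 counts in every sample, -0.0392 with the length and GC offset and -0.0014 without Control WT 0012 and 0015. *Ide* in *Slc11a2* KD was at -0.0803 by limma voom and -0.375 without 0004, and from -0.375 to 0.315 with 1 sample left out. *Aph1a* for *Slc11a2* KD in WT was at -0.0759 by limma voom and -0.169 with the library-number covariate, and from -0.0663 to 0.185 with 1 sample left out. For *Slc11a2* KD in *APP/PS1*, *Psen2* was at 0.0317 by DESeq2, 0.0319 with its size factors, 0.0342 by limma voom, 0.0239 with 10 counts in every sample, 0.0367 without 0004 and 0.143 with the offset, and from -0.122 to 0.0367 with 1 sample left out. *Ncstn* ran from -0.106 to 0.0303. With the covariate, *App* was at 0.0472, *Bace1* at 0.338, *Aph1a* at -0.124, *Adam10* at 0.065, *Ide* at 0.104 and the *Prnp* interaction at -0.0613, which ran from -0.132 to 0.284 with 1 sample left out. Knockdown values with the covariate rest on *Slc11a2* KD library numbers 1 to 4, as given above. The cause was not tested. Sample numbers do not repeat across groups, and no paired analysis was possible because of that. Depth limits *Bace1*, with 27 to 270 counts per sample.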
